A study of Mus musculus with 4 samples.

Results

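Lysosomal enzymes, lysosomal membrane proteins and the transcription factors that control them were followed in mouse liver tumors in which p53 had been switched back on. The set was a list of 40 gene symbols chosen by function, and 39 of them were measured, through 86 probe sets annotated to exactly 1 of these symbols. They were read among 18193 genes tested on the same arrays. Cd63, a tetraspanin of late endosomes and lysosomes, had no probe set of exactly 1 symbol and was not analysed here.

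Lysosomes are acidic compartments in which soluble hydrolases break down proteins, glycans, sulfated sugars and lipids that arrive by endocytosis, phagocytosis or autophagy. Membrane glycoproteins line the compartment, a proton pump acidifies it, and transcription factors of the TFEB family bind E-box sequences near many lysosomal genes. Macrophages are rich in lysosomes, and the lysosomal beta-galactosidase encoded by Glb1 is the enzyme behind the staining commonly used to detect senescent cells.

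Total RNA from 4 liver tumor samples was hybridized to Affymetrix mouse whole-genome arrays, 1 array per sample. All 4 tumors came from liver progenitor cells transplanted orthotopically into recipient livers, were driven by HrasV12 and carried shp53, a tet-off short hairpin RNA against p53, which doxycycline shuts off. In the p53 off group (2 arrays, day 0) no doxycycline had been given, and in the p53 on group (2 arrays, day 8) doxycycline chow had been given for 8 days, so that p53 could return. The labels state neither the recipients' strain and age nor whether the cells were 1 clone or animals were pooled.

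The p53 state rests on the labels, because the gene targeted by the hairpin was not analysed here; of 6 reference genes of the p53 response, 6 rose, among them Cdkn1a by 1.44 ± 0.099 (SE, log2). Array medians ranged from 7.29 to 7.34 on the log2 scale in p53 off and were 7.39 on both p53 on arrays. As a measure of RNA quality, the 3' minus 5' difference of the beta-actin controls was 0.262 to 0.395 in p53 off, compared with 0.478 to 0.492 in p53 on. Of 11 hepatocyte markers 4 were outside the dimmest 40% of genes. Alb, the gene of serum albumin, read 7.07 and 7.06 with p53 off and 7.39 and 6.96 with p53 on, at the 31.7 percentile of all genes by probe set brightness. Doxycycline, restored p53 and 8 days of time cannot be told apart in this design, and fewer cells of a type and less RNA per cell cannot be told apart in bulk tissue. The labels do not say that replicates were separate animals, so p-values reflect just the spread among these 4 arrays, part of which may be technical. With 2 arrays against 2, an exact two-sided permutation test cannot give a p below 0.333, and the tests reported here are limma's moderated test fitted across all genes.

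Of the 39 measured members, 23 rose in p53 on, 2 fell and 14 did not pass the test. A gene was called at a Benjamini-Hochberg adjusted p under 0.05 over all 18193 genes. Over all genes tested, 14.0% were called higher and 14.7% were called lower, against 59.0% and 5.13% of the members. The median change of the members was 0.38 on the log2 scale, beside 0.023 for all genes. Most members had bright probe sets, although brightness does not compare transcript levels between genes: ranked by mean value among all genes, they ran from the 43.7 percentile (Atp6v0d2) to the 99.7 percentile (Ctsb). With the 40% dimmest genes left out, 20.4% of the genes remaining were called higher, and so were 24 of the 39 members.

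The rises were mostly small. Among members called higher the change ran from 0.28 to 1.60, with a median of 0.54, and 20 of the 23 changed by less than 1, that is by less than a doubling. The 3 members that rose by 1 or more were Ctsk, Scarb2 and Atp6v0d2. Cathepsin L (Ctsl) and acid ceramidase (Asah1) fell. Of the 14 members not called, 9 had changes above 0 and 5 below 0, with adjusted p from 0.0511 to 0.906. Standard errors of the changes ran from 0.070 to 0.26.

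**Figure D1:**
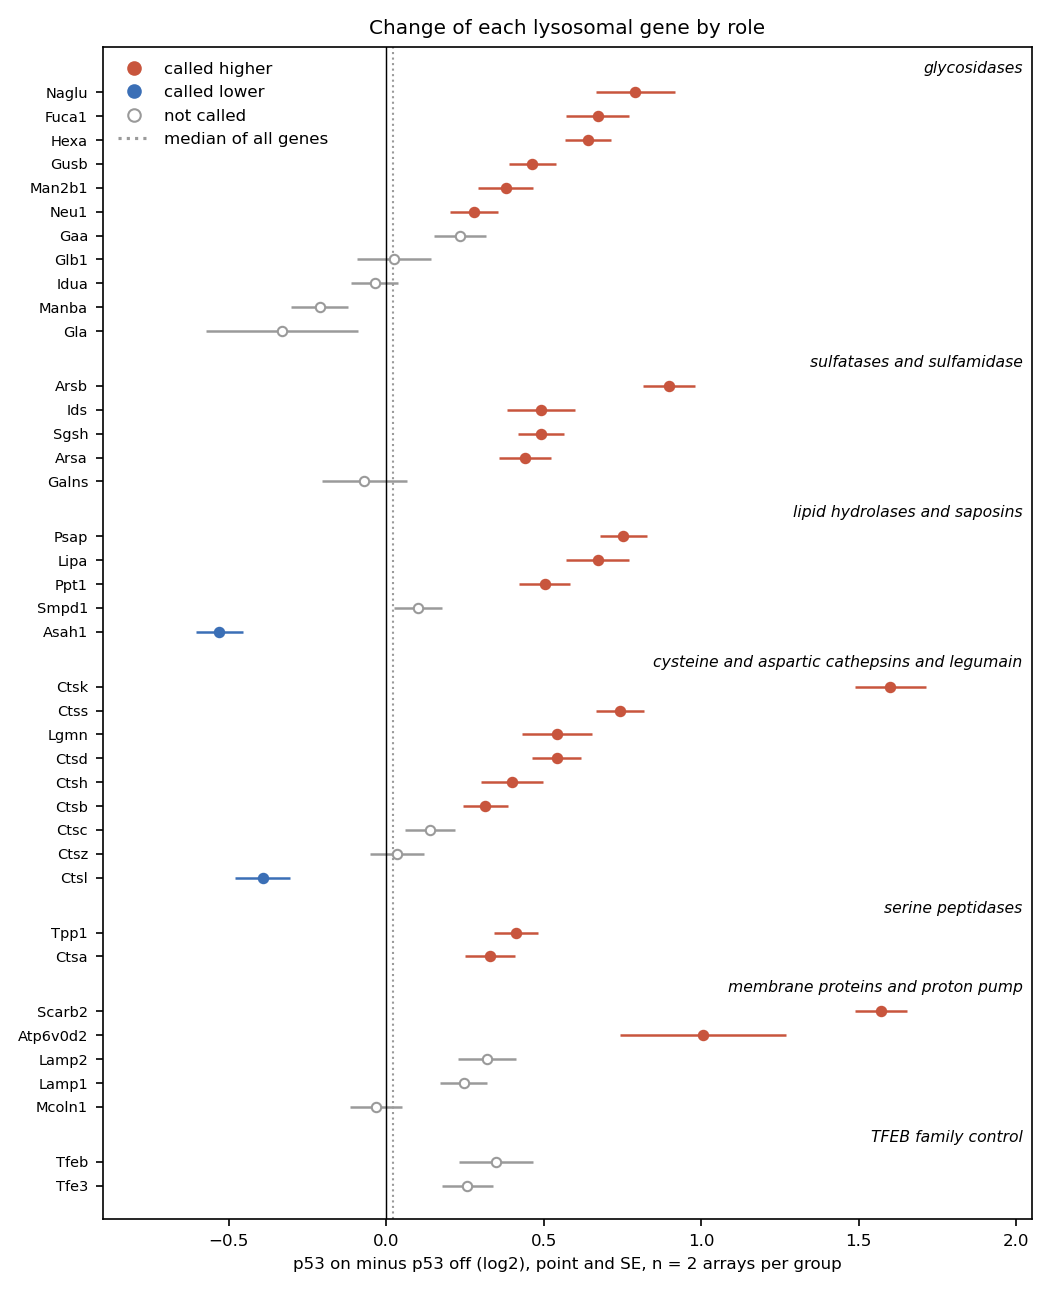
Change in log2 value from p53 off to p53 on for each of the 39 measured members, grouped by role (points are fitted changes, bars are 1 standard error, n = 2 arrays per group; filled points passed adjusted p under 0.05 and the dotted line is the median of all genes). Filled red points lie between 0.28 and 1.60, Asah1 and Ctsl are the 2 filled blue points, and Glb1 sits near 0.

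Promoter sequence was examined because TFEB-family proteins bind the E-box core CACGTG. RefSeq promoter windows (build GRCm38.p6, 250 bases before to 50 bases after the annotated start) were matched to 34 of the 39 members; Asah1, Atp6v0d2, Ctsb, Ctsh and Galns were not matched. The 6 letters CACGTG, which read the same on both strands, occurred in the windows of 12 of 34 members (35.3%). A gene was counted if any of its windows held a match. Counted in this way, the share was 10.2% of the 14452 tested genes with a window and 8.09% of all 27025 genes with a window. The flanked form TCACGTGA, which also reads the same on both strands and always contains the core, occurred in 4 members (11.8%). It occurred in 1.63% of tested genes with a window and in 1.12% of all genes with a window.

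Members called higher and members not called were found both with and without a match to CACGTG. Of the 12 members with the core, 6 were called higher, 1 was called lower and 5 were not called, with a median change of 0.29. Of the 22 members without it, 14 were called higher, 0 were called lower and 8 were not called, with a median change of 0.44. These are descriptions of letters in short windows, not of binding, and no test was made of the difference. Only CACGTG and its flanked form were searched for, so windows counted as without a match may hold other E-box sequences.

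The following 100-base stretches set 4 members that hold the core beside the members with the largest rises, Ctsk and Scarb2. The windows of Ctsk and Scarb2 hold no CACGTG. The choice was made after the values were seen and does not represent the members with the core. Of the 4 shown, Ctsd was called higher, and Lamp1, Mcoln1 and Gla were not called. Of all 12 members with the core 6 were called higher, and Naglu, Lgmn, Sgsh, Arsa and Ctsa among them are not shown. Capitals mark CACGTG, each stretch reads 5′ to 3′ on the strand of the gene, and all but that of Gla end at the base before the annotated start. Ctsd lies at chr7:142387828-142387927 (minus strand), Lamp1 at chr8:13159061-13159160 (plus strand), Mcoln1 at chr8:3500419-3500518 (plus strand), Scarb2 at chr5:92505658-92505757 (minus strand) and Ctsk at chr3:95499110-95499209 (plus strand). The Gla stretch, at chrX:134601146-134601245 (minus strand), runs from 240 to 141 bases before the start.
Ctsd: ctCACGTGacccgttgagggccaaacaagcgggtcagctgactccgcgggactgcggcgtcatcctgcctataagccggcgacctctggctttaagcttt
Lamp1: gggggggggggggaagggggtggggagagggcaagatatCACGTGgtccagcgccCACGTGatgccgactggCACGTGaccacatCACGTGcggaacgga
Mcoln1: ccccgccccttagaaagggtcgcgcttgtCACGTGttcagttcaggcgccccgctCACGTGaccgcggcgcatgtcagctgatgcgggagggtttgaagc
Gla: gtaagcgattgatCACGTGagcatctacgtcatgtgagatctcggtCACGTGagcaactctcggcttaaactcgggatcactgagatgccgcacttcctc
Scarb2: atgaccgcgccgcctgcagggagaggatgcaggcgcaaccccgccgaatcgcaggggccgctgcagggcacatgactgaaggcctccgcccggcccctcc
Ctsk: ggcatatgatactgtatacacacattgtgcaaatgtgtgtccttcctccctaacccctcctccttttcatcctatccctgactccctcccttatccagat

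Lamp1 held the core 4 times, and Ctsa, Ctsd, Gla and Mcoln1 held it 2 times each within their full windows. Of these 5 genes Ctsa and Ctsd were called higher and the other three were not called. Of the 19 matches in member windows, 13 were centred within the 100 bases before the start.

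The glycosidases remove sugars from glycoproteins, glycolipids and glycosaminoglycans. Of 11 measured, 6 rose (Naglu, Fuca1, Hexa, Gusb, Man2b1 and Neu1), 0 fell and 5 were not called, with a median change of 0.28. Glb1, the lysosomal beta-galactosidase, read 9.53 and 9.77 in p53 off, against 9.57 and 9.77 in p53 on. The groups overlapped, and the change was 0.024 ± 0.12 (SE, n = 2 arrays per group; limma adjusted p = 0.906). Under all 15 alternative settings, which covered scalings, choices of probe set, blocks and each array left out in turn but not the threshold on size, Glb1 stayed between -0.093 and 0.16 and was never called. Glb1 was measured by 1 probe set, whose p53 off arrays lay 0.23 apart, further than the group means.

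Naglu, which removes N-acetylglucosamine from heparan sulfate, had the largest rise of the glycosidases. It read 7.98 and 7.93 in p53 off, compared with 8.57 and 8.92 in p53 on. Both p53 on arrays lay above both p53 off arrays, and the change was 0.79 ± 0.13, or 1.73-fold (adjusted p = 0.00830; 0.0619 without p53 off replicate 2). Hexa, the alpha subunit of beta-hexosaminidase, which degrades GM2 ganglioside, read 11.69 and 11.71 with p53 off and 12.31 and 12.38 with p53 on. The groups lay well apart, with a change of 0.64 ± 0.074, or 1.56-fold (adjusted p = 0.00308). Fuca1, which removes fucose, read 10.47 and 10.62 against 11.13 and 11.30, and rose by 0.67 ± 0.10 with no overlap (adjusted p = 0.00679). The calls of Hexa and Fuca1 held under all 15 alternatives; with the mean of its 4 probe sets the change of Fuca1 was 0.42.

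Gusb, the beta-glucuronidase, gave opposite answers by probe set. Its brightest probe set read 10.56 and 10.59 in p53 off, against 11.01 and 11.08 in p53 on. The p53 on values were both higher, by 0.46 ± 0.074 (adjusted p = 0.00844). Its other probe set read 8.46 and 8.77 in p53 off, compared with 7.93 and 8.11 in p53 on. There both p53 on arrays were lower, by -0.60 ± 0.13 (adjusted p = 0.0246 in the fit over all probe sets). The mean of both changed by -0.067 (adjusted p = 0.625), and the call on the brightest was lost without p53 off replicate 1 (adjusted p = 0.0574) or 2 (0.0608). Gusb was the only member with probe sets called in both directions.

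The smaller rises were those of Man2b1, a lysosomal alpha-mannosidase, and Neu1, a sialidase. Man2b1 read 11.41 and 11.49 with p53 off and 11.75 and 11.90 with p53 on. The groups did not overlap, and the change was 0.38 ± 0.087 (adjusted p = 0.0262). That call was lost without p53 off replicate 1 (adjusted p = 0.134), p53 off replicate 2 (0.102) or p53 on replicate 2 (0.0700), with the crossed replicate block (0.0707) and after centring arrays on their medians (0.0541). Neu1 changed by 0.28 ± 0.076 without overlap (adjusted p = 0.0455) and lost its call in 11 of 15 alternatives, each of the 4 left-out arrays among them, with adjusted p up to 0.238.

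The glycosidases that were not called differed in kind. Gaa, the acid alpha-glucosidase that degrades glycogen, read 9.81 and 9.75 against 9.95 and 10.08, a change of 0.23 ± 0.084 (adjusted p = 0.0946) with no overlap. It was called after quantile normalization (adjusted p = 0.043) and with scaling to spike-in controls (change 0.36, adjusted p = 0.0325). Gla, the alpha-galactosidase A, read 8.38 and 8.19 in p53 off but 7.59 and 8.32 in p53 on. Only p53 on replicate 1 was low, the groups overlapped, and the change was -0.33 ± 0.24 (adjusted p = 0.367). Without p53 on replicate 2 the change of Gla was -0.70 (adjusted p = 0.00724), and without p53 on replicate 1 it was 0.037; it was -0.20 with spike-in scaling and -0.015 for the mean of its probe sets. Manba, the beta-mannosidase, changed by -0.21 ± 0.089 (adjusted p = 0.141); its change was -0.12 without p53 on replicate 1 and after quantile normalization, and -0.081 with spike-in scaling. Idua, the alpha-iduronidase, changed by -0.037 ± 0.074 (adjusted p = 0.759).

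**Figure D2:**
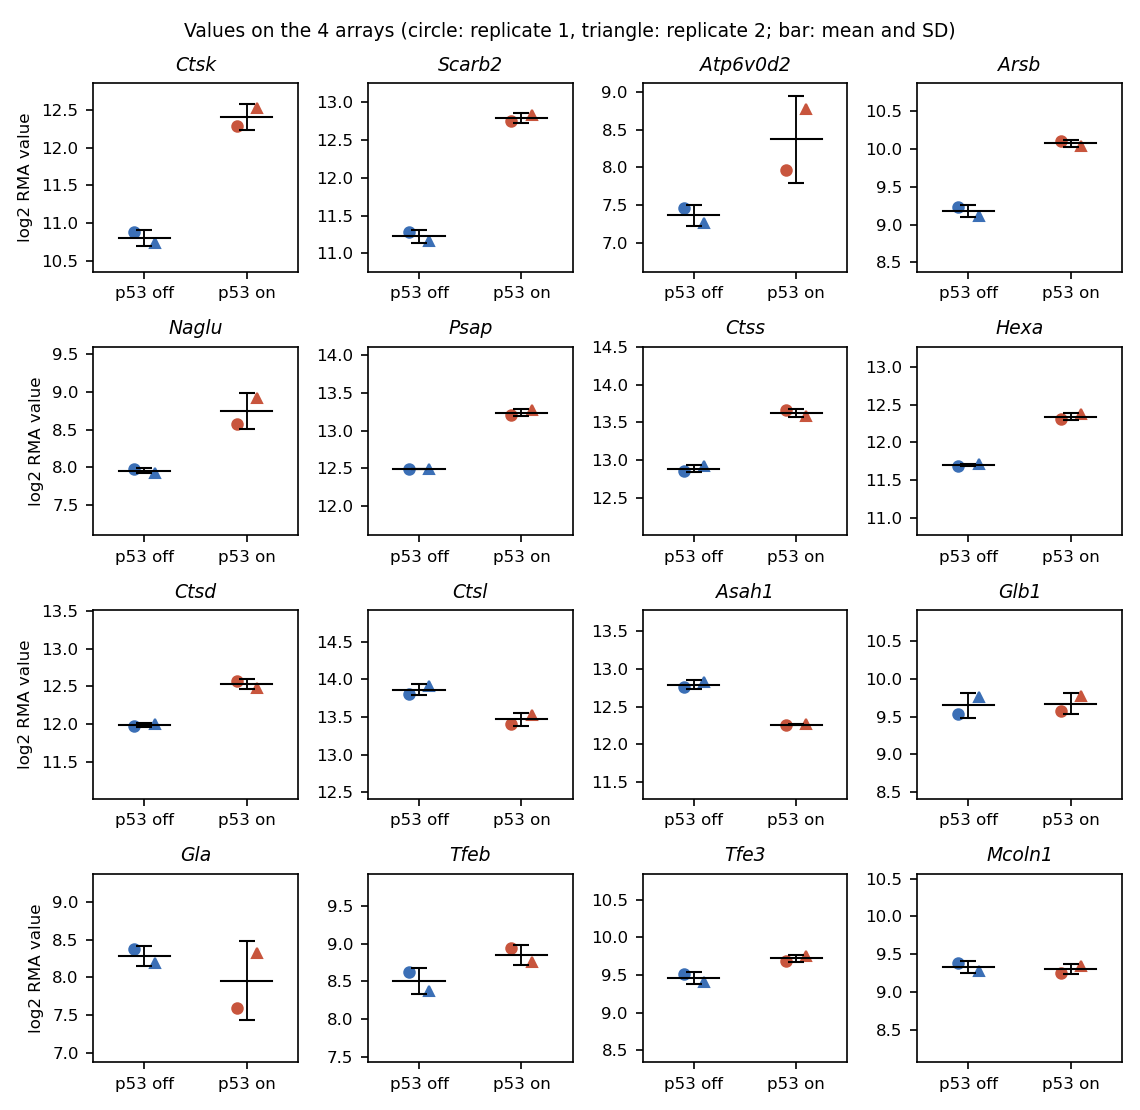
Log2 value of 16 members on each of the 4 arrays (circles are replicate 1 and triangles replicate 2, bars are group means and SD, n = 2; every panel spans the same 2.5 log2 units around its own gene, so heights compare changes, not levels between genes). Ctsk and Scarb2 show the widest gaps between groups, Glb1 and Mcoln1 overlap, Asah1 and Ctsl are lower in p53 on, and the 2 p53 on arrays lie far apart for Gla and Atp6v0d2.

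The sulfatases and the sulfamidase remove sulfate groups from glycosaminoglycans and sulfolipids. Of 5 measured, 4 rose and 0 fell, with a median change of 0.49. Arsb, which acts on dermatan and chondroitin sulfate, read 9.24 and 9.12 in p53 off, against 10.11 and 10.05 in p53 on. The arrays of the 2 groups lay clearly apart, by 0.90 ± 0.081 or 1.86-fold (adjusted p = 0.00155), and the call held under all 15 alternatives. The other two probe sets of Arsb changed by 0.034 and 0.018, however, and the mean over all 3 changed by 0.32.

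Sgsh, the sulfamidase of heparan sulfate breakdown, read 8.29 and 8.28 in p53 off, compared with 8.81 and 8.75 in p53 on. Replicates lay close together and groups apart, by 0.49 ± 0.073 (adjusted p = 0.00671; 0.0583 without p53 off replicate 2). Its other probe set changed by -0.031, and the mean of both by 0.23. Ids, the iduronate sulfatase, rose by 0.49 ± 0.11 (adjusted p = 0.0226) on its brightest probe set, the only one of its 6 that was called. The mean of all 6 probe sets of Ids changed by 0.13 (adjusted p = 0.209), and the call was also lost without p53 off replicate 1 (adjusted p = 0.0937) or 2 (0.125) and with the crossed replicate block (0.0541). Arsa, the arylsulfatase that degrades sulfatide, rose by 0.44 ± 0.082 (adjusted p = 0.0134; 0.0728 without p53 off replicate 1 and 0.0898 without replicate 2). Galns, which acts on keratan sulfate, overlapped between groups at 9.35 and 9.42 against 9.12 and 9.50, a change of -0.070 ± 0.14 (adjusted p = 0.752).

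Among 5 lipid hydrolases and saposins, 3 rose and 1 fell, with a median change of 0.50. Psap encodes prosaposin, the precursor of the saposins that present sphingolipids to their hydrolases. It read 12.49 on both p53 off arrays and 13.21 and 13.28 on the p53 on arrays. The groups were far apart relative to their spread, by 0.75 ± 0.074 or 1.68-fold (adjusted p = 0.00194), both probe sets were called, and the call held under all 15 alternatives.

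Lipa, the acid lipase that hydrolyses cholesteryl esters, read 9.90 and 9.73 with p53 off and 10.41 and 10.56 with p53 on. Each p53 on value was higher, with a change of 0.67 ± 0.10 (adjusted p = 0.00683; 0.0515 without p53 off replicate 2), and all 3 of its probe sets rose, by 0.67 to 0.89. Ppt1, which removes fatty acids from proteins, rose by 0.50 ± 0.081 (adjusted p = 0.00873; 0.0697 without p53 off replicate 2). Of its 5 probe sets only the brightest was called, and their mean changed by 0.15 (adjusted p = 0.157). Smpd1, the acid sphingomyelinase, changed by 0.10 ± 0.076 (adjusted p = 0.378).

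Asah1, the acid ceramidase, went the other way. It read 12.76 and 12.83 in p53 off, against 12.26 and 12.27 in p53 on. Both p53 on arrays lay below both p53 off arrays, with a change of -0.53 ± 0.074, a level 1.44-fold higher in p53 off (adjusted p = 0.00566; 0.0536 without p53 off replicate 2). Asah1 was measured by 1 probe set.

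Cathepsins are the main lysosomal proteases, most of them cysteine proteases, while Ctsd is an aspartic protease and legumain (Lgmn) cleaves after asparagine. Of these 9 genes 6 rose (Ctsk, Ctss, Lgmn, Ctsd, Ctsh and Ctsb), 1 fell (Ctsl) and 2 were not called (Ctsc and Ctsz), with a median change of 0.40. Ctsk, a collagen-degrading cathepsin best known from osteoclasts and also made by fibroblasts and macrophages, changed most of all members. It read 10.88 and 10.73 in p53 off, compared with 12.28 and 12.53 in p53 on. The p53 on arrays lay far above both p53 off arrays, by 1.60 ± 0.11 or 3.03-fold (adjusted p = 0.000861). That change was larger in size than those of 98.5% of all genes tested.

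Ctss, the cathepsin of antigen-presenting cells that processes the invariant chain, read 12.85 and 12.92 with p53 off and 13.66 and 13.59 with p53 on. The groups did not overlap, and the change was 0.74 ± 0.077 or 1.67-fold (adjusted p = 0.00226). Ctsd read 11.97 and 12.00 against 12.58 and 12.48, a change of 0.54 ± 0.077 without overlap (adjusted p = 0.00585). The calls of Ctsk, Ctss and Ctsd held under all 15 alternatives. Lgmn read 12.12 and 12.37 against 12.72 and 12.86, and its change of 0.54 ± 0.11 (adjusted p = 0.0186) lost its call without p53 off replicate 1 (0.0812) and with the crossed replicate block (0.0652).

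Ctsh, an aminopeptidase, and Ctsb, an endopeptidase that also trims C-terminal dipeptides, had smaller changes. Ctsh read 11.40 and 11.32 against 11.65 and 11.86, a change of 0.40 ± 0.097 without overlap (adjusted p = 0.0317), and both of its probe sets were called. The call on Ctsh was lost without p53 off replicate 1 (0.0964), p53 off replicate 2 (0.177) or p53 on replicate 2 (0.0767), and with the replicate block (0.0656). Ctsb read 13.65 and 13.67 in p53 off, against 13.97 and 13.98 in p53 on. Replicates lay within 0.02 of each other and the groups 0.31 ± 0.071 apart (adjusted p = 0.0247), near the top of the array's range. The second brightest probe set of Ctsb rose by 0.26 and was not called (adjusted p = 0.0562 in the fit over all probe sets). Its dimmer probe sets rose by more than the brightest, by 0.42 to 1.13. Of the 5 probe sets 4 were called, and the mean of all 5 changed by 0.61. The call on the brightest probe set of Ctsb was lost in 7 alternatives, those that left out each of the 4 arrays among them, with adjusted p up to 0.132.

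Ctsl, a cysteine endopeptidase, was the cathepsin that fell. It read 13.81 and 13.92 in p53 off, compared with 13.41 and 13.53 in p53 on. The p53 on values were both lower, with a change of -0.39 ± 0.086, a level 1.31-fold higher in p53 off (adjusted p = 0.0229). Its second, dimmer probe set changed by -0.50 ± 0.17 and was not called (adjusted p = 0.0867). The call on Ctsl was lost without p53 off replicate 1 (0.0684), p53 off replicate 2 (0.148) or p53 on replicate 1 (0.0618), with the crossed replicate block (0.0670) and with scaling to spike-in controls (change -0.26, adjusted p = 0.0757).

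The 2 cathepsins not called differed by probe set. Ctsc, which activates granule serine proteases, changed by 0.14 ± 0.080 (adjusted p = 0.260) on its brightest probe set. Its other two probe sets were called, with changes of 0.56 and 0.39, and the mean of all 3 was called as well (0.36, adjusted p = 0.0115). Ctsz, a carboxypeptidase, read 12.95 and 13.10 with p53 off and 13.06 and 13.05 with p53 on. Its groups overlapped on all 3 probe sets, with a change of 0.034 ± 0.085 on the brightest (adjusted p = 0.815).

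Both serine peptidases rose. Tpp1, a tripeptidyl peptidase, read 11.46 on both p53 off arrays and 11.87 on both p53 on arrays. Replicates were nearly identical, the change was 0.41 ± 0.070 (adjusted p = 0.0103), and the second probe set rose by 0.96. Without p53 off replicate 1 the adjusted p of Tpp1 was 0.0639, and without replicate 2 it was 0.0781. Ctsa, the protective protein that stabilises beta-galactosidase and the sialidase Neu1, rose by 0.33 ± 0.079 (adjusted p = 0.0306). The call on Ctsa was lost in 6 alternatives, with adjusted p up to 0.148: without p53 off replicate 1 or 2 or p53 on replicate 2, with the replicate block and with its crossed form, and with arrays centred on their medians.

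**Figure D3:**
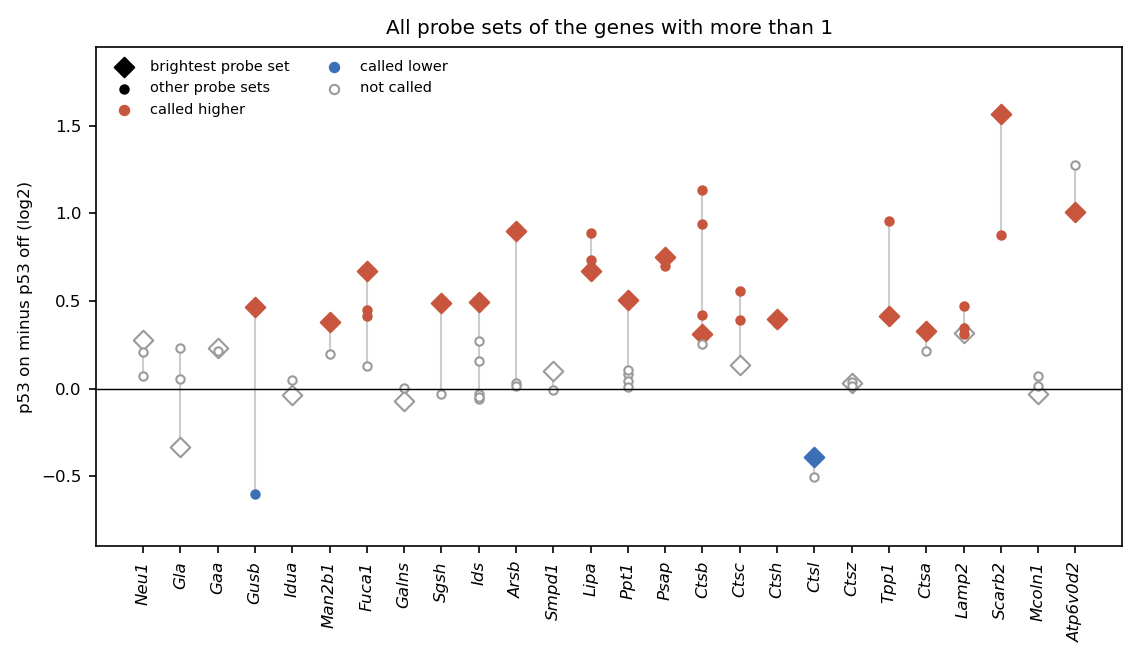
Change in log2 value of every probe set of the 26 members with more than 1 probe set (diamonds are the brightest probe set and circles the others, filled where called, n = 2 arrays per group). Gusb alone has called probe sets on both sides of 0, those of Lipa, Psap and Scarb2 all lie between 0.67 and 1.57, and those of Ctsz and Mcoln1 cluster near 0.

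Counted by probe set, 38 of the 86 were called higher, 3 were called lower and 45 were not called, in a fit over all 45037 probe sets of which 22.8% were called in either direction. For 13 members there was 1 probe set. Of the 26 with several, 5 had all of them called in 1 direction: Lipa, Psap, Ctsh, Tpp1 and Scarb2.

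Of 5 measured membrane and pump genes, 2 rose and 0 fell, with a median change of 0.32. Scarb2, also known as LIMP-2, carries beta-glucocerebrosidase to the lysosome. It read 11.28 and 11.16 in p53 off, against 12.75 and 12.84 in p53 on. The groups lay far apart, by 1.57 ± 0.083 or 2.97-fold (adjusted p = 0.000510), the second probe set rose by 0.88, and the call held under all 15 alternatives.

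Atp6v0d2, a proton pump subunit enriched in osteoclasts and some macrophages, was uneven. It read 7.46 and 7.27 in p53 off, compared with 7.96 and 8.78 in p53 on. Both p53 on arrays were higher, but they lay 0.82 apart, and the change was 1.01 ± 0.26 (adjusted p = 0.0394). Without p53 on replicate 2 the change of Atp6v0d2 was 0.60, still called. The call was lost without p53 off replicate 1 (adjusted p = 0.105) or 2 (0.186), with the replicate block (0.0614) and with the mean of both probe sets (0.0801).

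Lamp1 and Lamp2 encode the most abundant glycoproteins of the lysosomal membrane, and neither passed the test. Lamp1 read 13.02 and 13.10 against 13.30 and 13.32, a change of 0.25 ± 0.075 without overlap (adjusted p = 0.0615). It was called with quantile normalization (0.0451), scaling to spike-in controls (change 0.38, adjusted p = 0.0175), every gene taken as the mean of its probe sets (0.0439; Lamp1 itself has 1) and trend and robust moderation (0.0357). Lamp2 read 12.63 and 12.46 against 12.91 and 12.82, a change of 0.32 ± 0.091 without overlap (adjusted p = 0.0511). The other 3 probe sets of Lamp2 were called, with changes of 0.31 to 0.47, and Lamp2 was called in 6 of 15 alternatives. Mcoln1, the lysosomal calcium channel TRPML1, read 9.38 and 9.28 with p53 off and 9.25 and 9.35 with p53 on. Its groups overlapped on all 3 probe sets, with a change of -0.032 ± 0.082 on the brightest (adjusted p = 0.818).

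TFEB and TFE3 are transcription factors that move to the nucleus when the kinase mTORC1 is inactive, so their activity need not follow their transcript. Tfeb read 8.62 and 8.38 in p53 off, against 8.94 and 8.76 in p53 on. Both p53 on arrays were higher, by 0.35 ± 0.12, which did not pass the test (adjusted p = 0.0788); it passed with the replicate block (0.0476) and with scaling to spike-in controls (0.0262). Without p53 off replicate 2 the change of Tfeb was 0.23 (adjusted p = 0.353). Tfe3 read 9.52 and 9.41 against 9.68 and 9.76, a change of 0.26 ± 0.081 without overlap (adjusted p = 0.0675). It was called after quantile normalization (0.0397) and with scaling to spike-in controls (change 0.39, adjusted p = 0.0249).

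Other genes of the pathway were taken from 7 lists of 125 genes, of which 117 were measured: 38 rose and 7 fell, with a median change of 0.19. The other hydrolases and cofactors were called about as often as the members, with 14 of 24 higher, 0 lower and a median of 0.41, led by Plbd1 (1.82 ± 0.076, adjusted p = 0.00036), Ctse, Ctso and Ctsf. Of 21 other membrane proteins and transporters 10 rose and 2 fell, with a median of 0.27. Mcoln2, a channel related to Mcoln1, rose by 1.32 ± 0.19 (adjusted p = 0.00613). Of 16 further subunits of the proton pump 3 rose and 0 fell, with a median of 0.070, so the share called higher (18.8%) lay near that of all genes. The sorting machinery that delivers enzymes to lysosomes had 1 of 12 higher (Igf2r, a mannose 6-phosphate receptor, 0.44) and 2 lower (Vps35 and Vps26a of the retromer, -0.47 and -0.34). These shares, 8.33% and 16.7%, did not stand out from the 14.0% and 14.7% of all genes. Igf2r lost its call in 4 of 15 alternatives, Vps35 in 1 and Vps26a in 8. Quantile normalization (adjusted p = 0.0584) and scaling to spike-in controls (change -0.21) were among those for Vps26a.

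Of 7 inhibitors of cathepsins and legumain, 2 rose (Cst3, which encodes cystatin C, 0.72, and Cst7, 0.69). Another 2 fell (Ctla2b, -0.66, and Serpinb6a, -0.46), and the median of the list was 0.072. That was 28.6% of this short list in each direction, beside 14.0% higher and 14.7% lower of all genes. Of 18 autophagy genes 3 rose (16.7%) and 1 fell (5.56%), beside 14.0% and 14.7% of all genes, with a median of 0.061. Atg4a rose by 1.12 (adjusted p = 0.00121), and its call held under all 15 alternatives. Map1lc3a rose by 0.38 (adjusted p = 0.0313) and Gabarap by 0.30 (0.0409), and their calls were lost in 5 and 7 of the 15. Atg9b changed by -0.64 (adjusted p = 0.0287) and lost its call in 2. Among 19 relatives and upstream regulators of TFEB, 5 rose (26.3%) and 0 fell, with a median of 0.19. Mitf, the family member that controls melanocyte, osteoclast and mast cell genes, read 8.70 and 8.31 in p53 off, compared with 10.70 and 11.02 in p53 on. Both p53 on arrays were higher, by 2.35 ± 0.17 or 5.10-fold (adjusted p = 0.00089), and the mean of both Mitf probe sets changed by 1.41. Flcn, which encodes folliculin, rose by 0.57 ± 0.076 (adjusted p = 0.00486) and Rragd, a Rag GTPase, by 1.01 ± 0.20 (adjusted p = 0.0174). Without p53 off replicate 1 the adjusted p of Rragd was 0.0578, without replicate 2 it was 0.107, and the mean of its probe sets changed by 0.35.

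Markers of other cells in the tumor moved with the lysosomal genes, and their part in the members' changes was not tested. Of 18 macrophage markers 15 rose and 0 fell, and their mean log2 value ranged from 10.28 to 10.29 in p53 off and from 10.98 to 11.10 in p53 on. Over the 39 members the same mean ranged from 10.72 to 10.73 in p53 off and from 11.06 to 11.16 in p53 on. Of 12 fibroblast and stellate cell markers 10 rose and 1 fell (11.02 to 11.33 in p53 off, 11.99 to 12.01 in p53 on), and of 8 mast cell markers 7 rose (7.16 to 7.81 against 9.02 to 9.80). Dendritic cell markers rose in 6 of 7 cases (7.52 to 7.62 against 8.57 to 8.66) and endothelial markers in 8 of 11, with 1 lower (8.44 to 8.50 against 8.90 to 9.21). Of 10 liver progenitor and epithelial markers 5 fell and 1 rose (10.10 to 10.19 against 9.30 to 9.61).

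Markers of the resident macrophages of the liver, Kupffer cells, and of osteoclasts gave other counts. Of 5 Kupffer cell markers 0 were called, with means of 6.90 to 6.92 with p53 off and 6.87 to 7.10 with p53 on. All but 1 of them (Vsig4, 0.35 ± 0.33, adjusted p = 0.488) were among the dimmest 40% of genes, where RMA flattens changes. Of 6 osteoclast markers 0 rose and 1 fell (Ocstamp), with means of 7.85 to 7.87 in p53 off and 7.82 to 7.92 in p53 on. Outside the dimmest 40% of genes lay 4 of these 6 markers. Calcr, the calcitonin receptor gene, was a dim marker of this list. It read 5.52 and 5.51 in p53 off, against 5.55 and 5.58 in p53 on, at the 5.21 percentile of all genes by probe set brightness. Of 9 T and NK cell markers 3 rose (7.37 to 7.53 against 7.89 to 8.20), with Gzma, which encodes granzyme A, highest at 2.55 ± 0.49. Its adjusted p was 0.0146, and its call was lost with trend and robust moderation (adjusted p = 0.0834) and without p53 off replicate 2 (change 2.25). In the remaining lists 1 of 7 neutrophil markers rose (7.34 to 7.74 against 7.45 to 7.73), 0 of 3 B cell markers were called (6.25 to 6.31 against 6.22 to 6.35), and of 11 hepatocyte markers 2 rose and 2 fell (7.19 to 7.27 against 6.92 to 7.26). The share called higher was 14.3% for the neutrophil and 18.2% for the hepatocyte markers, near the 14.0% of all genes. Apob, which encodes the main protein of liver lipoproteins, had the largest change of the hepatocyte list, at -3.27 ± 0.21 (adjusted p = 0.000751).

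**Figure D4:**
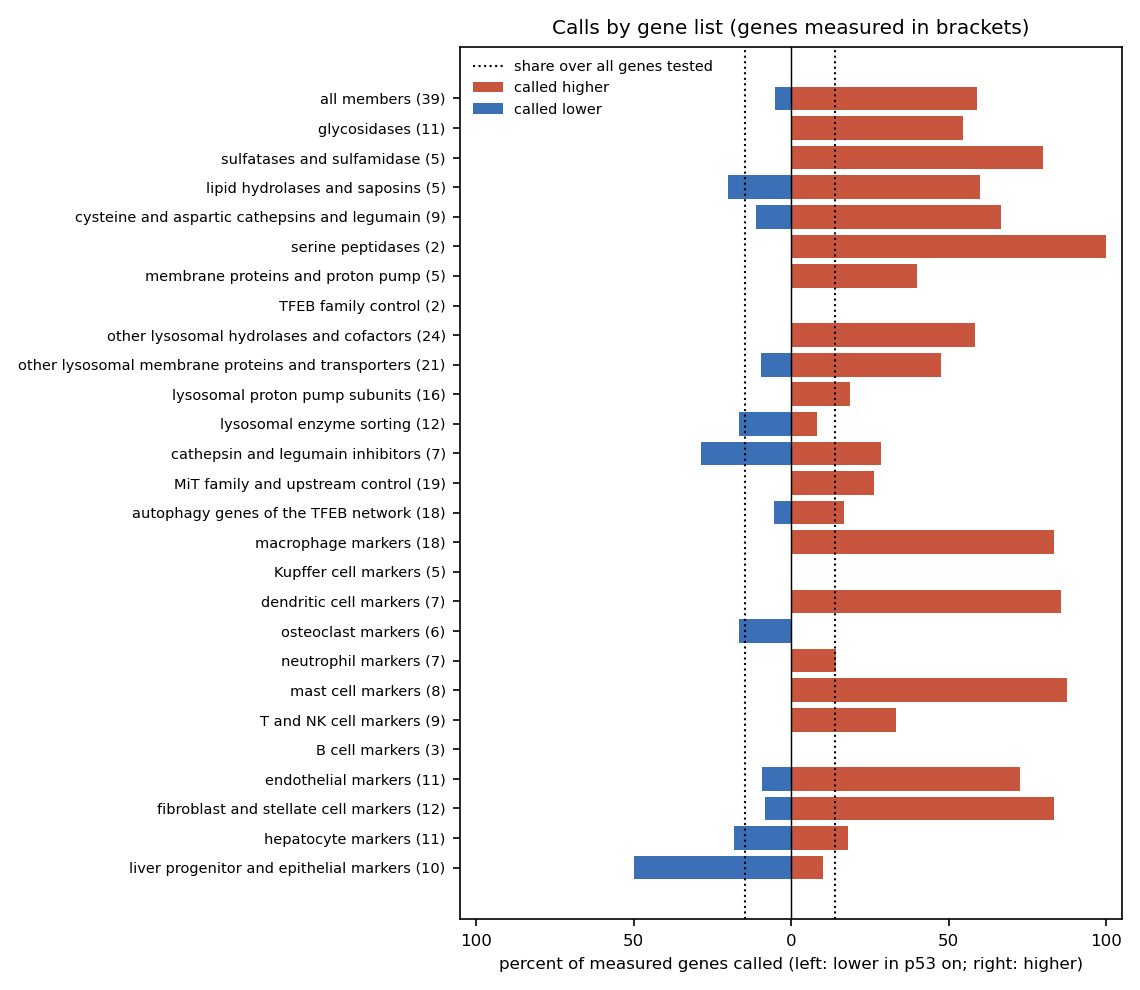
Genes called higher or lower in p53 on for the members by role, for the other lysosomal lists and for the cell type marker lists, as a percentage of the genes measured in each list (n = 2 arrays per group), with dotted lines at the shares over all genes tested. Lysosomal hydrolases and the macrophage, dendritic, mast and fibroblast markers lie above the 14.0% of all genes called higher, while proton pump subunits (18.8%) lie near it.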

How the data were processed

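Expression was measured in 4 liver tumor samples, 2 per group by the sample labels, on 1 array each. Values as deposited by the authors are on the log2 scale and came from RMA, per the submitters' processing notes; limma 3.14.4 is named there too. RMA corrects background, quantile-normalizes the arrays and combines the probes of a set. Which genome build and annotation the authors used is not given in the sources used here. Because RMA makes no detection calls and flattens low values, dim genes can show less change than they had (values ran from 4.66 to 14.9). Precision is limited by having 4 arrays.

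Of 45101 probe sets, 64 were controls, 34945 had exactly 1 symbol in the platform annotation, 932 had several and 9160 had none; 34741 matched RefSeq (GRCm38.p6), and 0 symbols changed. Each gene was represented by its brightest probe set of exactly 1 symbol. Changes are p53 on minus p53 off from lmFit and eBayes (limma 3.58.1, R 4.3.3, statmod 1.5.0; 2 residual and 5.47 moderated degrees of freedom), Benjamini-Hochberg adjusted over 18193 genes. The fit was tested on simulated data. Promoter windows are RefSeq's. Python 3.11.15 with matplotlib 3.10.9 made the figures.

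All 39 measured members are named; from each other list up to 4 called genes with the largest change could be named. Alb and Calcr were named after their values were seen, to check the tissue labels. Vsig4 was also named outside this rule, as the only Kupffer cell marker above the dimmest 40% of genes. Members, lists and tests were chosen with earlier results of these data known. Alternatives were a replicate block and its crossed form, quantile normalization, centring on array medians, scaling to 18 spike-in probe sets, leaving out the dimmest 40% of genes, the mean of all probe sets, the brightest probe set without a cross-hybridization mark, testing all probe sets, trend and robust moderation, array weights, a size of 1 or more, and each array left out; in that case the single array left in a group took the spread of the other.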

Additional observations from a re-analysis of the deposited data

How the results depend on the processing

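The count of 23 members called higher stayed within 1.5 times under every alternative except some left-out arrays and the size threshold. With each array left out in turn it ranged from 9 to 21, and the count called lower from 0 to 3. Leaving out p53 off replicate 2 ended 16 members' calls and p53 off replicate 1 ended 12. Requiring a change of at least 1 as well left 3 higher (Ctsk, Scarb2 and Atp6v0d2) and 0 lower. Of all genes, 2.73% were then called higher and 2.55% lower. The count called lower was 1 with the crossed replicate block and 1 with spike-in scaling, beside 10.8% and 10.4% of all genes. The members' median change was 0.463 after quantile normalization, 0.305 with centring, 0.511 with spike-in scaling and 0.288 when a gene's probe sets were averaged. Spike-in scaling moved the median of all genes by 0.131, and of genes called 70.0% were then higher, against 37.9% with centring. For Gusb the mean over its probe sets gave a change of -0.0675. Of 25 called members, 8 kept the call under all 15 alternatives other than the size threshold (Hexa, Fuca1, Arsb, Psap, Ctsd, Ctsk, Ctss and Scarb2) and 17 lost it under at least 1, while 7 not called were called under at least 1.

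With the replicate block 19 members were called higher and 2 lower, beside 11.1% and 12.6% of all genes. The labels share only a replicate number, and the deviations of same-numbered arrays correlated at -0.154, so the number was not taken as a pairing. The crossed pairing, added after seeing the data, called 17 higher and 1 lower, beside 10.9% and 10.8% of all genes. No detection call or probe-level background was used, so how far dim members such as Atp6v0d2 lay above background was not tested.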
